A study of Rattus norvegicus with 8 samples.

Results

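The genes described here are 10 genes of type 2 (Th2) immunity: the cytokines Il4, Il5, Il10 and Il13, the receptors Il4r, Il13ra1, Il13ra2 and Il1rl1, and the regulators Stat6 and Gata3. They were chosen by name and read from the brightest probe set that the platform annotation gives to the gene alone. They are 10 of the 14506 genes measured. Islets of fetal Sprague-Dawley rats were profiled on Affymetrix whole-transcript arrays, at embryonic day 19, after surgery on the dams on embryonic day 18. The groups were 4 IUGR litters, whose dams had surgery that restricts fetal growth in the uterus (intrauterine growth restriction), and 4 sham litters, whose dams had a sham operation. Each array held the pooled islets of 1 whole litter. Dams were purchased timed-pregnant and no sort of the islets is named. Inflammation of the islets has been a subject of work with this model, and the comparison asks how these genes stand 1 day after surgery.

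As background, IL-4 and IL-13 are secreted by Th2 lymphocytes, innate lymphoid cells, mast cells, basophils and eosinophils, and act through receptors that contain the IL-4 receptor alpha chain. Receptor engagement leads to phosphorylation of the transcription factor STAT6, while GATA3 drives the commitment of lymphocytes to type 2 cytokine production. Macrophages, fibroblasts and many epithelial cells carry the receptors and STAT6 without making the cytokines.

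Upstream sequences of the genes were taken from RefSeq on the rat assembly GRCr8. Each ran from 250 bases before a start used for the gene to 50 after it. That start is not always the outer edge of the gene. The Il1rl1 window began at base 50203388 of chromosome 9, where the gene spans 50157326 to 50222888. The Gata3 window began at base 73553298 of chromosome 17, where the gene spans 73544234 to 73575670. For Il13ra1 and Il4r the start also lay inside the gene, but nearer its edge. A window was found for 7 of the 10 genes, and Il10, Il13 and Il13ra2 were not matched. These windows differed in their content of CpG, a cytosine followed by a guanine. Il1rl1 had 2 CpGs, Il4 had 3 and Il5 had 4, against 14 in Stat6, 20 in Gata3, 23 in Il4r and 29 in Il13ra1. All 33469 promoter windows had a median of 7, and 938 windows of olfactory receptor genes, which are silent in most tissues, had a median of 1. The windows of Il4 and Il5, cytokines at the array floor, and of Il4r and Stat6, well above it, show this contrast. They are printed 5′ to 3′ on the gene's own strand, with each CpG in capitals. They lie at chr10:38277500-38277799 (minus strand) for Il4, chr10:38374882-38375181 (plus strand) for Il5, chr1:189545525-189545824 (plus strand) for Il4r and chr7:65365255-65365554 (plus strand) for Stat6.
Il4: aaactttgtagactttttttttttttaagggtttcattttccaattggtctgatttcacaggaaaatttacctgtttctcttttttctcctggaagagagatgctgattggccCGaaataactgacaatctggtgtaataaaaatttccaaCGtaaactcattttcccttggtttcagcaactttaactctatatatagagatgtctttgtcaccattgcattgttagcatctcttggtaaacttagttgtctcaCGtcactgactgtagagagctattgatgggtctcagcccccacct
Il5: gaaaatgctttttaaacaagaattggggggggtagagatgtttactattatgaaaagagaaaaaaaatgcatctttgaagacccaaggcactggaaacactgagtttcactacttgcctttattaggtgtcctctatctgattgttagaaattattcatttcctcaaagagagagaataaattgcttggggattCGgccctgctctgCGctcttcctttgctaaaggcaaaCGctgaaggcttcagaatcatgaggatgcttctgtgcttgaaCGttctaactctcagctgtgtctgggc
Il4r: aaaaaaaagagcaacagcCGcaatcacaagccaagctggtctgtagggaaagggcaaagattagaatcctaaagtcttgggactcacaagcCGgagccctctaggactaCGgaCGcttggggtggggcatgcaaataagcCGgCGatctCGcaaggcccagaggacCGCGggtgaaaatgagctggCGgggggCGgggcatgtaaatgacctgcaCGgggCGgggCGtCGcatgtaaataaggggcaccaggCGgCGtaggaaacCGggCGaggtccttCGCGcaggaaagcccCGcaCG
Stat6: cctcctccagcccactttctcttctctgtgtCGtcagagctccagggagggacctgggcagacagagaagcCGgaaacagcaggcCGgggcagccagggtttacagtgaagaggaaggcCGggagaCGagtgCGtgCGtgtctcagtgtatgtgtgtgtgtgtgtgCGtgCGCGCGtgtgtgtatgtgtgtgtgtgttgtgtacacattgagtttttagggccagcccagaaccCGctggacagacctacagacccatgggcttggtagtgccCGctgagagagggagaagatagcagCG

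The 4 genes with 14 or more CpGs were the same 4 whose signal lay above the array floor in all 8 litters, as described in the values that follow. This is a description of 7 windows, with no test. A search of both strands for TTCNNNNGAA, a STAT binding pattern, found it in Il4, with its first base 196 bases before the start used. In Il1rl1 it lay 198 bases before the start used. It occurred in 7.28% of all promoter windows and in 13.6% of the olfactory receptor windows. The letters GATA, on either strand, lay 116 bases before the start of Il5, 40 bases after that of Stat6 and 27 bases after that of Gata3. They occurred in 60.5% of all windows and in 90.5% of the olfactory receptor windows. A match of letters is not a bound site.

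Islet identity of the material was checked first. All 13 measured islet endocrine genes lay above the array floor in all 8 litters, whereas of 15 measured T cell genes only Ptprcap and Cd4 did. Of 17 macrophage genes 15, of 12 mesenchymal genes 12, of 9 duct genes 9 and of 15 liver plasma protein genes 13 also lay above the floor in all litters. Alb, serum albumin, averaged 13.92 ± 0.08 in IUGR litters and 13.08 ± 1.02 in sham litters, so the check shows islet transcripts without showing that other tissue was absent. In pooled tissue, fewer cells of a type and less RNA per cell cannot be told apart.

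The array floor was taken from 1105 olfactory receptor genes, and a gene was counted as above it where its log2 value exceeded their 95th percentile on the same array. That percentile was 6.57, 6.45, 6.49 and 6.55 in IUGR litters 1 to 4, against 6.49, 7.55, 7.47 and 7.59 in sham litters 1 to 4. Sham litter 1 had the low floor of the IUGR litters, and the other sham litters had a floor about 1 log2 unit higher. The olfactory receptor median showed the same split, with 5.72, 5.62, 5.65 and 5.68 in IUGR litters, against 5.69, 6.32, 6.17 and 6.24 in sham litters. The 3 arrays with a high floor also had a narrower spread of gene values, with an interquartile range of 3.20, 3.23 and 3.06, against 3.53 to 3.63 on the other 5 arrays. Probes differ in affinity, so a position relative to this floor describes a probe set and is not an amount of transcript.

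Of the 10 genes, 4 lay above the floor in all 8 litters (Il4r, Il13ra1, Stat6 and Gata3), 4 in none (Il4, Il5, Il10 and Il13ra2), Il1rl1 in 7 and Il13 in 5. Among all genes, 8852 of 14506 (61.0%) lay above it in all 8 litters, and among the olfactory receptor genes themselves 25 of 1105 (2.26%) did. The 3 receptor and transcription factor genes Il13ra1, Stat6 and Il4r ranked on average at the 95.1, 81.7 and 78.9 percentile of all genes on the array. Gata3 ranked at 50.8 and Il1rl1 at 38.6, and the cytokines ranked between 9.02 for Il5 and 25.2 for Il13.

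**Figure D1:**
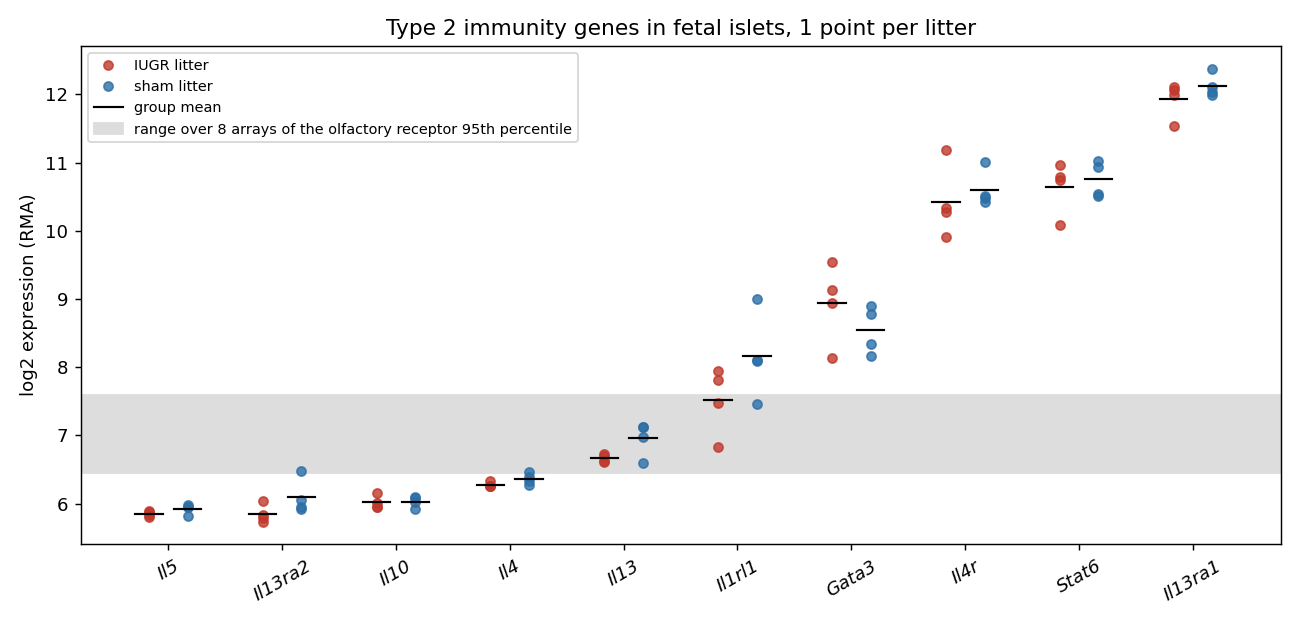
Log2 expression (RMA) of the 10 genes, with 1 point per litter, IUGR litters left of sham litters for each gene, a black line at each group mean and a grey band for the range over the 8 arrays of the olfactory receptor 95th percentile (6.45 to 7.59). Il5, Il10, Il13ra2 and Il4 lie at or below the band, Il13 lies in it, and Stat6, Il4r and Il13ra1 lie well above it.

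In the comparison of IUGR with sham litters over all 14506 genes, 36 genes (0.248%) passed an adjusted p of 0.05, and 0 of the 10 type 2 genes did (limma). The count of 36 was 0 after quantile normalization. It was 2738 without sham litter 1, 157 without sham litter 4, 43 without IUGR litter 2, 2 without IUGR litter 4 and 0 without any other single litter. At an unadjusted p under 0.05, 3789 genes and again 0 of the 10 were found. In 2242 genes (15.5%) the values of the groups showed no overlap, and in 0 of the 10 was this so. The 10 genes had a median difference of -0.14, with 9 of 10 lower in IUGR, whereas all genes had a median of 0.04, with 6517 lower. The confidence intervals bound the differences in the deposited scaling only, and another scaling moved some differences outside them. For Il4, Il5 and Il10 they lay within -0.25 and 0.19, on a scale where a difference can be compressed at the floor, whereas for Il1rl1 and Gata3 they reached -1.46 and 1.08.

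Il4 encodes the cytokine that starts Th2 differentiation and class switching to IgE. Its log2 values were 6.26, 6.26, 6.26 and 6.34 in IUGR litters 1 to 4, against 6.33, 6.39, 6.46 and 6.27 in sham litters 1 to 4. The 8 litters lay close together, the groups overlapped, and no litter was above the floor. The means were 6.28 ± 0.04 in IUGR litters and 6.36 ± 0.08 in sham litters (SD, n = 4 each). The difference was -0.08 ± 0.07 (SE), with a 95% confidence interval of -0.25 to 0.09 (adjusted p = 0.488, limma). On the IUGR arrays, 88.8 to 92.7% of olfactory receptor genes were dimmer than Il4, and on the sham arrays 52.9 to 92.2% were.

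Il5, the growth and survival factor of eosinophils, was also at the floor, with log2 values of 5.81, 5.89, 5.84 and 5.89 in IUGR litters 1 to 4, against 5.82, 5.98, 5.95 and 5.95 in sham litters 1 to 4. IUGR litter 1 and sham litter 1 were the lowest, the groups overlapped, and no litter was above the floor. The difference was -0.07 ± 0.07 (SE; 95% interval -0.24 to 0.10, adjusted p = 0.548, limma). The share of olfactory receptor genes dimmer than Il5 was 60.1 to 76.9% on the IUGR arrays and 27.1 to 65.2% on the sham arrays. Its receptor chain Il5ra was also above the floor in no litter, with a difference of -0.16 ± 0.07 (SE, adjusted p = 0.206, limma). The groups did not overlap in Il5ra, nor in 15.5% of all genes and 283 of the 1105 olfactory receptor genes. After quantile normalization the Il5ra difference was 0.0402.

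Il13, which acts on epithelium, smooth muscle and fibroblasts, lay close to the floor. Its log2 values were 6.72, 6.61, 6.63 and 6.70 in IUGR litters 1 to 4, against 6.60, 7.12, 6.98 and 7.12 in sham litters 1 to 4. Sham litters 2 to 4 were the highest, and sham litter 1 lay just under all IUGR litters, so the groups overlapped. The means were 6.67 ± 0.06 in IUGR litters and 6.96 ± 0.25 in sham litters (SD, n = 4 each), a difference of -0.29 ± 0.13 (SE; 95% interval -0.58 to 0.0017, adjusted p = 0.193, limma). On the IUGR arrays 96.5 to 96.8% of olfactory receptor genes were dimmer than Il13, and on the sham arrays 88.1 to 96.4% were.

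The 3 sham litters with the higher Il13 value were the 3 with the higher floor, and in them Il13 lay below the floor, whereas it lay above it in the 4 IUGR litters and in sham litter 1. Measured from the olfactory receptor median of its own array, Il13 stood 0.98 to 1.02 higher in IUGR litters and 0.80 to 0.91 higher in sham litters. Without sham litter 1 the Il13 difference was -0.41 (adjusted p = 0.0146, limma), and this was the only change of any of the 10 genes past the threshold of 0.05 in any setting run. In the same fit 2738 of all genes passed, and among them were 790 of the 1105 olfactory receptor genes, whose median difference was then -0.52.

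Il10, a cytokine that restrains inflammation and is made by Th2 and regulatory T cells and by macrophages, lay at the floor in both groups. It had log2 values of 6.01, 5.95, 5.96 and 6.16 in IUGR litters 1 to 4, against 6.09, 6.08, 5.92 and 6.02 in sham litters 1 to 4. No group stood apart, and no litter was above the floor. The difference was -0.0071 ± 0.08 (SE; 95% interval -0.20 to 0.19, adjusted p = 0.963, limma). Its 2 receptor chains differed. Il10rb was above the floor in all litters, with means of 11.19 ± 0.15 in IUGR litters and 10.97 ± 0.36 in sham litters. The difference was 0.22 ± 0.18 (SE, adjusted p = 0.449, limma), and median centring turned its sign. Il10ra was above the floor in 5 litters, with means of 6.99 ± 0.18 in IUGR litters and 7.28 ± 0.38 in sham litters. Its difference was -0.29 ± 0.19 (SE, adjusted p = 0.349, limma).

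**Figure D2:**
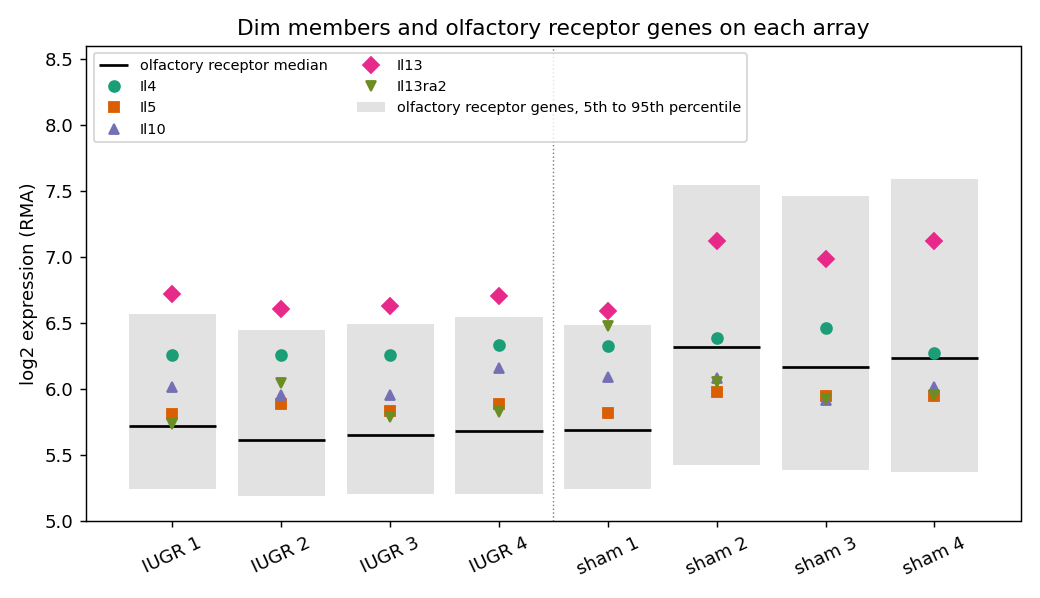
Log2 expression (RMA) of Il4, Il5, Il10, Il13 and Il13ra2 on each array, IUGR litters 1 to 4 left of the dotted line and sham litters 1 to 4 right of it, over grey bars from the 5th to the 95th percentile of 1105 olfactory receptor genes, with a black line at their median. The bars of sham litters 2 to 4 reach 7.47 to 7.59, against 6.45 to 6.57 on the other 5 arrays, and only Il13 rises above a bar, on those 5 arrays.

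Il4, Il13 and Il5 lie on chromosome 10 in the order Kif3a, Il4, Il13, Rad50 and Il5, a cluster in which the neighbours Kif3a (a kinesin motor) and Rad50 (a DNA repair gene) are broadly expressed. These neighbours were looked up after the data were seen. Both lay above the floor in all 8 litters. Kif3a had means of 8.39 ± 0.17 in IUGR litters and 7.99 ± 0.33 in sham litters, a difference of 0.40 ± 0.17 (SE, adjusted p = 0.193, limma). Rad50 had means of 9.28 ± 0.10 in IUGR litters and 8.91 ± 0.29 in sham litters, a difference of 0.37 ± 0.15 (SE, adjusted p = 0.164, limma). Beside these neighbours, Il4 and Il5 were above the floor in no litter and Il13 in 5.

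Il13ra2, the second receptor of IL-13, which binds it tightly and is known as a decoy, lay with the cytokines, at log2 values of 5.74, 6.05, 5.79 and 5.83 in IUGR litters 1 to 4, against 6.48, 6.05, 5.93 and 5.95 in sham litters 1 to 4. Sham litter 1 was the highest and lay at -0.0084 relative to the floor of its array, and the groups overlapped. The difference was -0.25 ± 0.14 (SE; 95% interval -0.58 to 0.07, adjusted p = 0.273, limma). Olfactory receptor genes dimmer than Il13ra2 made up 52.5 to 86.2% on the IUGR arrays and 32.1 to 94.8% on the sham arrays.

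Il4r, the alpha chain shared by the receptors of IL-4 and IL-13, was clearly expressed. It had log2 values of 10.27, 10.34, 11.19 and 9.91 in IUGR litters 1 to 4, against 11.00, 10.51, 10.42 and 10.48 in sham litters 1 to 4. IUGR litter 3 was the highest and IUGR litter 4 the lowest of all 8, so the IUGR litters spanned the sham litters. The means were 10.43 ± 0.54 in IUGR litters and 10.60 ± 0.27 in sham litters (SD, n = 4 each), a difference of -0.17 ± 0.27 (SE; 95% interval -0.79 to 0.44, adjusted p = 0.687, limma). It was -0.43 without IUGR litter 3, -0.0013 without IUGR litter 4 and -0.0406 without sham litter 1. The common gamma chain Il2rg, the partner of Il4r in lymphoid and myeloid cells, had means of 9.13 ± 0.49 in IUGR litters and 9.61 ± 0.34 in sham litters, a difference of -0.49 ± 0.26 (SE, adjusted p = 0.265, limma). Jak1, the kinase bound to Il4r, had means of 12.10 ± 0.17 in IUGR litters and 11.86 ± 0.17 in sham litters, a difference of 0.24 ± 0.12 (SE, adjusted p = 0.237, limma).

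Il13ra1 pairs with Il4r to form the receptor for both IL-4 and IL-13 on cells outside the lymphoid lineage. It had log2 values of 12.06, 12.12, 11.99 and 11.54 in IUGR litters 1 to 4, against 12.38, 12.10, 11.99 and 12.03 in sham litters 1 to 4. Sham litter 1 was the highest and IUGR litter 4 the lowest, and the groups overlapped. The difference was -0.20 ± 0.15 (SE; 95% interval -0.54 to 0.15, adjusted p = 0.412, limma).

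The identity of the Il13ra1 signal has a limit. In the array's numbering the probe set that the annotation gives to Il13ra1 alone falls between Opa1 and Plaat1, genes of chromosome 11 between which RefSeq places the pseudogene Il13ra1-ps1. A second probe set, which the annotation gives to both Il13ra1 and the pseudogene, falls between Zcchc12 and Dock11 on chromosome X, beside Il13ra1 itself. Its log2 values were 11.99, 12.02, 11.92 and 11.47 in IUGR litters 1 to 4, against 12.33, 12.06, 11.90 and 11.93 in sham litters 1 to 4. The probe set read here stood 0.0418 to 0.104 above it in every litter, and both gave a difference of -0.20. The gene and its pseudogene cannot be told apart from these values.

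Stat6, the transcription factor that carries the IL-4 and IL-13 signal to the nucleus, was clearly expressed, at log2 values of 10.79, 10.75, 10.96 and 10.09 in IUGR litters 1 to 4, against 11.03, 10.54, 10.51 and 10.94 in sham litters 1 to 4. IUGR litter 4 was the lowest by a wide margin, and the other IUGR litters lay within the sham range. The means were 10.65 ± 0.38 in IUGR litters and 10.76 ± 0.27 in sham litters (SD, n = 4 each), a difference of -0.11 ± 0.21 (SE; 95% interval -0.59 to 0.37, adjusted p = 0.759, limma). Without IUGR litter 4 the difference was 0.08, so 1 litter set its sign.

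Gata3, which besides its role in Th2 cells is active in several developing epithelia, innate lymphoid cells and neurons, was the only one of the 10 genes with a higher mean in IUGR in the deposited values. It had log2 values of 8.13, 9.13, 9.54 and 8.94 in IUGR litters 1 to 4, against 8.78, 8.17, 8.90 and 8.34 in sham litters 1 to 4. IUGR litter 3 was the highest and IUGR litter 1 the lowest of all 8, so the IUGR litters again spanned the sham litters. The means were 8.94 ± 0.59 in IUGR litters and 8.55 ± 0.35 in sham litters (SD, n = 4 each), a difference of 0.39 ± 0.30 (SE; 95% interval -0.30 to 1.08, adjusted p = 0.420, limma). It was 0.66 without IUGR litter 1 and 0.19 without IUGR litter 3.

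Il1rl1, also called ST2, is the receptor of the alarmin IL-33 and marks mast cells, type 2 innate lymphoid cells and Th2 cells. Its log2 values were 7.47, 7.95, 7.81 and 6.83 in IUGR litters 1 to 4, against 9.00, 8.10, 8.10 and 7.46 in sham litters 1 to 4. Sham litter 1 was the highest and IUGR litter 4 the lowest, while sham litter 4 lay below 3 of the 4 IUGR litters and was the 1 litter in which Il1rl1 did not pass the floor. The means were 7.52 ± 0.50 in IUGR litters and 8.16 ± 0.64 in sham litters (SD, n = 4 each). The difference of -0.65 ± 0.35 (SE; 95% interval -1.46 to 0.16, adjusted p = 0.269, limma) was the largest among the 10 genes and did not pass. It was -0.37 without sham litter 1, -0.42 without IUGR litter 4 and -0.88 without sham litter 4.

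The mast cell protease genes Cma1 and Cpa3 had the same extremes as Il1rl1. Cma1, mast cell chymase, had log2 values of 7.32, 9.02, 8.59 and 6.79 in IUGR litters 1 to 4, against 10.85, 9.50, 9.31 and 8.31 in sham litters 1 to 4. Cpa3, mast cell carboxypeptidase, which was picked out after its values were seen, had 8.91, 10.66, 9.65 and 8.20 in IUGR litters 1 to 4, against 12.13, 10.51, 10.62 and 9.81 in sham litters 1 to 4. In both, as in Il1rl1, sham litter 1 was the highest and IUGR litter 4 the lowest. The same held for Il13ra1, Stat6 and Il2rg, so these extremes were not particular to mast cell genes. The differences were -1.56 ± 0.63 for Cma1 (SE, adjusted p = 0.172, limma) and -1.41 ± 0.62 for Cpa3 (SE, adjusted p = 0.192, limma).

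In the list of mast cell, basophil and eosinophil genes, 5 ran the other way: Hdc, Kit, Epx, Prg2 and Prg3. The other 9, with Cma1 and Cpa3 among them, were lower in IUGR. Hdc, which encodes the histamine-forming enzyme and had the smallest p of the mast cell list, had log2 values of 12.83, 11.98, 13.30 and 13.48 in IUGR litters 1 to 4, against 12.12, 9.87, 11.34 and 9.34 in sham litters 1 to 4. Its order over the 8 arrays was that of the liver plasma protein list, whose values stand with Il1rap, with IUGR litter 4 the highest and sham litter 4 the lowest. The difference was 2.23 ± 0.62 (SE, adjusted p = 0.120, limma). It passed after centring on the olfactory receptor median (adjusted p = 0.0387) and without sham litter 1 (2.71, adjusted p = 0.0206). In those fits 2309 and 2738 of all 14506 genes passed. It did not pass after quantile normalization (2.11, adjusted p = 0.149, limma) or with the replicate block (adjusted p = 0.248, limma). The part of liver cells in the Hdc values was not tested. Kit, the receptor of stem cell factor, differed by 0.42 ± 0.18 (SE, adjusted p = 0.191, limma). Without sham litter 1 it differed by 0.60 (adjusted p = 0.0149, limma), in the fit where 2738 genes passed. That litter was at 9.64, against 8.86 to 8.97 in the other sham litters. The Kit difference was 0.19 after quantile normalization (adjusted p = 0.373, limma) and 0.19 after median centring (adjusted p = 0.349, limma).

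The wider marker lists differed in how uniform they were. The list of mast cell, basophil and eosinophil genes (14 of 16 measured) had 5 higher and 9 lower in IUGR, with 0 past the threshold, 8 above the floor in all litters, and Il5ra and Fcer1a above it in none. After quantile normalization 7 were higher and 7 lower. Its mean log2 value ranged from 7.82 to 8.50 over the IUGR litters and from 8.09 to 9.03 over the sham litters, with sham litter 1 again the highest. The macrophage list (17 genes) had 17 lower and 0 past the threshold. Its mean was 8.94 to 9.97 over the IUGR litters and 9.82 to 10.60 over the sham litters, also highest in sham litter 1. The mesenchyme list (12 genes) had 12 lower and 0 past the threshold, with a mean of 10.22 to 11.25 over the IUGR litters and 11.30 to 11.86 over the sham litters. All 17 macrophage and all 12 mesenchyme genes stayed lower after quantile normalization (medians -0.74 and -0.75) and after median centring. Centred on the olfactory receptor median, the numbers lower in IUGR were 4 of 14, 11 of 17 and 9 of 12 for these 3 lists. The part of these cells in the Il1rl1 values was not tested.

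**Figure D3:**
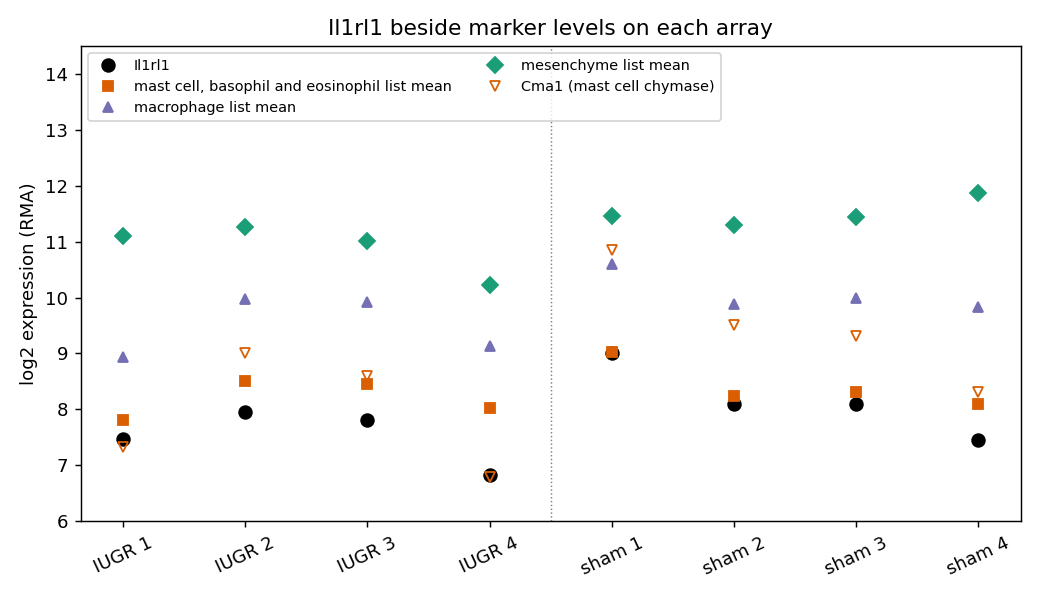
Log2 expression (RMA) of Il1rl1 and of Cma1 on each array, with the mean of the mast cell, basophil and eosinophil list, of the macrophage list and of the mesenchyme list, IUGR litters 1 to 4 left of the dotted line and sham litters 1 to 4 right of it. Il1rl1 and Cma1 are highest in sham litter 1 (9.00 and 10.85) and lowest in IUGR litter 4 (6.83 and 6.79).

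Of the partners of Il1rl1, the ligand gene Il33 had log2 values of 9.95, 9.80, 9.63 and 7.50 in IUGR litters 1 to 4, against 10.10, 9.58, 9.64 and 9.53 in sham litters 1 to 4. IUGR litter 4 was far below the other 7 litters, which lay close together. The difference was -0.49 ± 0.51 (SE, adjusted p = 0.545, limma), and it was 0.08 without IUGR litter 4. Il1rap, the co-receptor chain shared with the IL-1 receptor, had log2 values of 9.76, 9.24, 9.84 and 10.06 in IUGR litters 1 to 4, against 9.34, 8.51, 8.88 and 8.28 in sham litters 1 to 4. Only IUGR litter 2 lay below the highest sham litter. The difference was 0.97 ± 0.26 (SE, adjusted p = 0.113, limma), opposite in sign to that of Il1rl1. It passed after centring on the olfactory receptor median (1.41, adjusted p = 0.0359) and without sham litter 1 (1.17, adjusted p = 0.0174). In those fits 2309 and 2738 of all 14506 genes passed. It did not pass after quantile normalization (0.75, adjusted p = 0.149, limma) or with the replicate block (adjusted p = 0.248, limma). The order of the 8 arrays by Il1rap was the same as by the mean of 15 genes of liver plasma proteins, which was 12.41, 11.67, 12.55 and 12.96 in IUGR litters, against 11.81, 9.90, 11.31 and 9.40 in sham litters. The part of liver cells in the Il1rap values was not tested.

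The direction of the differences of the 10 genes depended on scaling. The olfactory receptor genes had a median difference of -0.40, and 1095 of 1105 were lower in IUGR, with 0 past the threshold and 771 at an unadjusted p under 0.05 (limma). When each array was centred on its olfactory receptor median, the median difference of all genes moved to 0.47. Under that centring 8 of the 9 lower genes turned higher, from 0.15 for Il13 to 0.43 for Il10, and Il1rl1 stayed lower at -0.21. Gata3 then stood at 0.83. After quantile normalization, Il4 (0.11), Il5 (0.15) and Il10 (0.20) turned higher and the others kept their sign, with the median of all genes at -0.0038. None of the 10 passed the threshold under either scaling.

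**Figure D4:**
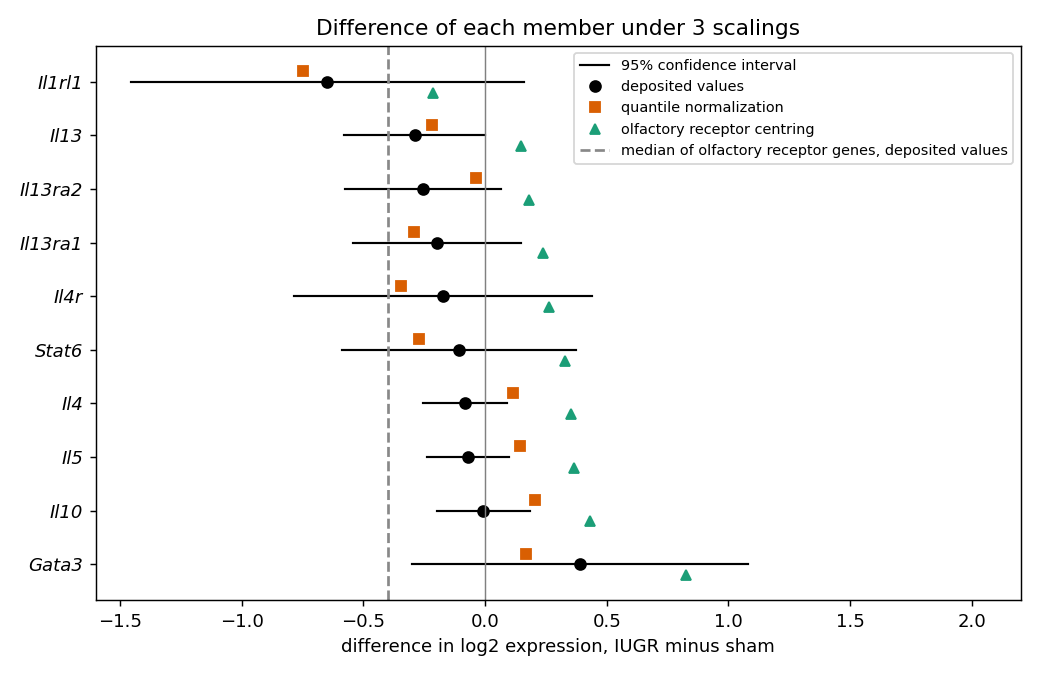
Difference in log2 expression (IUGR minus sham) of each of the 10 genes, as black points with 95% confidence intervals for the deposited values, squares after quantile normalization and triangles after centring each array on its olfactory receptor median; the dashed line marks the olfactory receptor median of -0.40. Only the Il1rl1 triangle (-0.21) lies left of 0, and the 10 intervals include 0.

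For the genes above the floor in all litters, the most similar profiles among all other genes were found by the mean absolute difference of values centred on each gene's mean, over 8 litters. Nearest to Il4r were Sema6b (0.0839) and Gabre (0.100), to Il13ra1 Sec23a (0.0508) and Chn1 (0.0542), and to Stat6 Dusp18 (0.0493) and Slc8b1 (0.0576). Gata3 had its nearest profiles further off, in the transcription factor gene Etv5 and the eosinophil peroxidase gene Epx (0.181 each). Epx had log2 values of 8.47, 9.18, 9.79 and 9.51 in IUGR litters 1 to 4, against 9.40, 8.74, 8.93 and 8.68 in sham litters 1 to 4, with IUGR litter 3 highest and IUGR litter 1 lowest, as in Gata3.

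Among 36 other measured genes of the type 2 pathway (44 listed), 14 were higher and 22 lower in IUGR, with 0 past the threshold and a median of -0.05, but 32 were higher after centring on the olfactory receptor median, when 3 of 36 passed (Gfi1, Il1rap and Socs1), beside 15.9% of all genes. The floor was exceeded in all litters by 19 of them, and in none by Il3, Csf2 and Cd40lg, products of activated T cells, nor by Ccr4, Il5ra and Il17rb. The groups did not overlap in 5 of 36, beside the 15.5% of all genes: Gfi1 and Socs1 were higher, and Il21r, Il5ra and Il3 lower. Gfi1, a transcriptional repressor of lymphoid and myeloid cells, had log2 values of 8.99, 8.86, 8.77 and 9.59 in IUGR litters 1 to 4, against 8.40, 8.05, 8.13 and 7.73 in sham litters 1 to 4. All IUGR litters were above all sham litters, with a difference of 0.97 ± 0.21 (SE, adjusted p = 0.0805, limma). It passed after centring on the olfactory receptor median (1.41, adjusted p = 0.0238) and without sham litter 1 (1.08, adjusted p = 0.0199). In the fit without sham litter 1, 2738 of all genes passed. It did not pass after quantile normalization (0.76, adjusted p = 0.149, limma).

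Genes that IL-4 and IL-13 are known to regulate in other cells were split in direction. Of 19 measured (22 listed), 7 were higher and 12 lower in IUGR, with 0 past the threshold and a median of -0.25, but 15 were higher after centring on the olfactory receptor median, when 4 of 19 passed, beside 15.9% of all genes. Retnla, a marker of alternatively activated macrophages, and Fcer2, the low-affinity IgE receptor, were above the floor in no litter. The groups did not overlap in 4 of 19 genes, beside 15.5% of all genes, and these were higher in IUGR: Arg1, Tgm2, Cdh1 and Il1rn. Cdh1, an epithelial cadherin that is also on the list of duct genes, differed by 1.00 (adjusted p = 0.0774, limma). Il1rn, the IL-1 receptor antagonist, differed by 1.26 (adjusted p = 0.138), and Postn, periostin, by -0.79 (adjusted p = 0.150). Beside these, 9 of 9 measured duct genes were higher in IUGR, with 1 past the threshold (Krt8, a keratin, 1.07, adjusted p = 0.0431, but 0.142 after quantile normalization), and 15 of 15 liver plasma protein genes were higher with 0 past it. The part of such cells in the values of Cdh1, Il1rn and Arg1 was not tested.

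Genes of the Th1 and Th17 programmes, the other arms of the helper T cell response, were read in the same way. Of 23 measured (28 listed), 5 were higher and 18 lower in IUGR, with 0 past the threshold and a median of -0.16, but 21 were higher after centring on the olfactory receptor median. Ifng, Il2, Il6, Il17a, Il17f and Il21 were above the floor in no litter, and Il1b, Il18, Il6r, Ifngr1, Ifngr2 and Il17ra were above it in all. The smallest p-values were those of Lta (-0.23), Tbx21, the Th1 master regulator (-0.27), and Il23a (-0.24), none of which passed.

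The cells that would make type 2 cytokines were also looked for by their markers. Of 15 T cell genes, 14 were lower in IUGR, with 0 past the threshold and a median of -0.16, and the T cell receptor components Cd3d and Cd3e were above the floor in no litter. Cd3g, of the same complex, was the 1 higher gene of the list, above the floor in 7 of 8 litters and with a difference of 0.78 ± 0.34 (SE, adjusted p = 0.191, limma). The mean of that list was 6.98 to 7.23 over the IUGR litters and 7.13 to 7.46 over the sham litters. Of 10 genes of innate lymphoid and natural killer cells, 8 were lower, with 0 past the threshold and a median of -0.31, and 4 were above the floor in all litters. The mean of this list was 7.59 to 7.98 over the IUGR litters and 7.91 to 8.40 over the sham litters. It was highest in sham litter 1, as were Il1rl1 and the means of the T cell, macrophage, and Th1 and Th17 lists. Centring on the olfactory receptor median turned most of both lists, with 14 of 15 and 8 of 10 higher in IUGR, and after quantile normalization 8 of 15 and 8 of 10 were lower.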

How the data were processed

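Expression was measured on 8 arrays of pooled fetal rat islets, 1 per litter, with 4 IUGR and 4 sham litters. The deposited log2 values are RMA values, according to the submitters' processing notes and per the labels; the sources used here do not state a version. Per the labels' protocols, RNA was isolated with RNAzol B and labelled with biotin. Of 29214 probe sets, 15310 had 1 gene in the platform annotation, 323 several and 13581 none; 15279 matched a RefSeq gene of GRCr8. The brightest probe set was kept for the 527 genes with several, which left 14506 genes. The platform annotation can be old.

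The deposited log2 values were compared between the 2 groups with lmFit and eBayes of limma 3.58.1 (R 4.3.3). P-values were two-sided, with Benjamini-Hochberg adjustment over 14506 genes and a threshold of 0.05. Standard errors come from the moderated fit, with 8.21 degrees of freedom. Arrays have no read depth, and their number limits the precision. The array floor was the 95th percentile of 1105 olfactory receptor genes on each array. The alternatives were quantile normalization, median centring, centring on the olfactory receptor median, a filter on the 30% dimmest genes, averaging the probe sets of a gene, the 99th percentile or the 30th percentile of all genes as the floor, the replicate number as a block, and leaving out each litter. The second Il13ra1 probe set was an alternative chosen after seeing the data. Litters of the 2 groups share replicate numbers. The correlations of their deviations were -0.43, 0.10, -0.12 and -0.13 for numbers 1 to 4. These values gave no sign of pairing by number, but they cannot exclude it, and the main fit was unpaired.

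The 10 genes and all lists were chosen with earlier results of these data known. Named besides them were up to 3 genes of each list by smallest p and the 2 most similar genes for each member above the floor in all litters. Kif3a, Rad50, Il33, Il2rg, Jak1, Il10rb, Il5ra, Cpa3, Cd3g and Alb were added by their relation to a member or list after values were seen. Il10ra was set beside Il10rb, also after values were seen, and is not among the 60 named genes. Genes named only by their floor count or lack of overlap follow from those counts. Figures were drawn with matplotlib 3.10.9.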

Additional observations from a re-analysis of the deposited data

Results flagged for a closer look

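In 9 of 120 groups of 4 litters examined for the named genes, 1 litter stood apart by Dixon's test, where chance flags about 1 in 20 groups. Of the 10 type 2 genes, 2 were among them. Il4 was 6.34 (log2) in IUGR litter 4, against 6.26 in each of the other IUGR litters, with a gap of 0.922 of the group's range. Il4r was 11.00 in sham litter 1, against 10.42 to 10.51 in the other sham litters, with a gap of 0.844.

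IUGR litter 4 also stood apart in Postn (10.62), Dusp18 (8.56), Kif3a (8.13) and Il33 (7.50), and in each of these 4 genes it was the lowest IUGR litter. Sham litter 1 stood apart in Gzmb (7.62, the lowest sham litter), Kit (9.64, the highest) and Sec23a (11.65, the highest).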

How the results depend on the processing

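None of the 10 type 2 genes passed the threshold under any setting but 1. Leaving out 1 litter at a time, 0 to 1 of them passed, the 1 being Il13 without sham litter 1, and its adjusted p ranged from 0.0146 to 0.358 over all settings. The number of all genes past the threshold was 36 in the deposited values, 0 after quantile normalization, 1 after median centring, 2309 after centring on the olfactory receptor median, 59 after the filter on dim genes and 0 to 2738 leaving out 1 litter. With the replicate block it was 0, and the block changed no call of the 10 genes. The filter removed Il4, Il5, Il10, Il13 and Il13ra2 and gives no value for them. With 4 genes above the floor in all litters, the stricter 99th percentile gave 3, and the 30th percentile of all genes gave 4. The gene lost at the 99th percentile was Gata3. It was at 8.17 and 8.34 in sham litters 2 and 4, against percentiles of 8.39 and 8.61.

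Centring on the olfactory receptor median reversed the sign of Il4 (0.35), Il5 (0.37), Il10 (0.43), Il13 (0.15), Il4r (0.26), Il13ra1 (0.24), Il13ra2 (0.18) and Stat6 (0.33). It also reversed Il21r (0.19), Il5ra (0.28), Lta (0.21), Tbx21 (0.16), Il23a (0.20), the lymphocyte markers Lat (0.10), Cd3d (0.21), Klrg1 (0.10) and Ncr1 (0.10), Trem2 (0.0188), Sparc (0.11), Sema6b (0.42), Gabre (0.41), Sec23a (0.26), Chn1 (0.26), Dusp18 (0.34) and Slc8b1 (0.36). By construction it adds the same amount, the group difference in olfactory receptor median, to the difference of every gene. Quantile normalization reversed Il4 (0.11), Il5 (0.15), Il10 (0.20), Il5ra (0.0402), Cd3d (0.0005) and Gabre (0.15), and median centring reversed Il10rb (-0.0123). Of the 60 named genes, 12 gained a call after centring on the olfactory receptor median, where 2309 of all 14506 genes (15.9%) passed. Without sham litter 1, 17 gained a call, where 2738 of all genes passed. Many named genes were chosen by smallest p or after values were seen, so these counts are no result about them. Leaving out 1 litter at a time, the difference ranged from -0.11 to -0.05 for Il4, -0.10 to -0.05 for Il5, -0.41 to -0.23 for Il13, -0.43 to -0.0013 for Il4r, -0.26 to -0.07 for Il13ra1, -0.32 to -0.13 for Il13ra2, 0.19 to 0.66 for Gata3 and -0.88 to -0.37 for Il1rl1. It ranged from -0.0534 to 0.0159 for Il10, -0.21 to 0.0779 for Stat6, -0.74 to 0.0802 for Il33, -0.26 to 0.16 for Sema6b, -0.25 to 0.12 for Gabre, -0.18 to 0.0437 for Dusp18 and -0.18 to 0.0661 for Slc8b1. Beyond the arithmetic of centring and of fewer samples, the cause was not tested.

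Signal at the array floor limits the cytokine genes. A probe set there cannot show how much transcript was present, and the floor itself differed between 3 sham arrays and the other 5. The intervals given hold the differences that 4 litters per group did not exclude in the deposited scaling, and do not cover the choice of scaling. After centring on the olfactory receptor median, Il4 (0.35), Il5 (0.37), Il10 (0.43) and Il13 (0.15) lay outside their intervals.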

Other observations

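Of the entries in the lists read here, 22 lacked a probe set of their own and are not analysed here, among them Il25 and Tslp, which are epithelial inducers of type 2 cytokines, and Tyk2, a kinase of the IL-13 receptor. Of the islet endocrine genes, 9 of 13 measured were higher in IUGR and 4 lower, with 0 past the threshold and a median of 0.10, but 9 were lower after median centring. Their list mean was 11.12 to 11.64 over the IUGR litters and 10.78 to 12.29 over the sham litters, with sham litter 4 the highest.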
